A study of Arabidopsis thaliana with 7 samples.

Results

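HY5-YFP binding was examined at 5 genes of photoperiodic timing in Arabidopsis thaliana: GI, FKF1, LKP2, ZTL and CDF1. The genes were chosen by name, with earlier results of these data known. A binding site was assigned by its peak centre, from 1500 bp outside to 500 bp inside either gene end in the TAIR10 build. Peaks of the 6 libraries that shared at least 1 bp were joined into 10233 sites, of which 6 fell in these windows. GI, FKF1, LKP2 and ZTL had 1 site each and CDF1 had 2. The gene table used carries no strand, so positions are given from the lower-coordinate or the higher-coordinate end of each gene, and neither end is called a promoter.

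Chromatin immunoprecipitation followed by sequencing (ChIP-seq) recovers the DNA that a tagged protein occupies in fixed chromatin. The protein was HY5, a bZIP transcription factor of light signalling, fused to yellow fluorescent protein and pulled down with GFP-Trap beads. All plants were of the Wassilevskija (Ws) accession, carried the hy5-ks50 T-DNA insertion and expressed HY5-YFP; they were 10 days old and were used whole. They had been entrained to 12 h of light and 12 h of darkness and were then kept for 52 h in blue or in red light at 15 µmol m-2 s-1, with 3 biological replicates in each light. A mock sample came from a mix of the blue light replicates and control beads without the antibody, and it served as the reference for the red libraries too. The labels do not name the promoter that drives HY5-YFP, and pull-down from plants without the fusion was not analysed here. In whole plants, fewer cells with the site bound and less binding per cell cannot be told apart. The series title names blue light signalling through HY5 to the circadian clock as the subject, and the blue and red libraries were compared on that question.

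GI is a large plant-specific protein, controlled by the circadian clock, that stabilises its partners and links the clock to flowering time. ZTL, FKF1 and LKP2 form a small family of F-box proteins: each has a LOV domain that absorbs blue light, an F-box that docks it into an SCF ubiquitin ligase, and kelch repeats. In blue light GI binds the LOV domain; the GI and ZTL pair controls turnover of clock proteins, and the GI and FKF1 pair removes CDF1. CDF1 is a DOF transcription factor that represses CO and FT, the genes at the end of the photoperiodic flowering pathway.

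The libraries held 7.992 to 11.886 M tags (1 M is 1e6), and the lists held 8524 to 8888 peaks in blue and 4027 to 5672 in red light. The authors' values count tags in a window set by the estimated fragment length of each library. That window measured 340 to 348 bp for the blue libraries, 306 and 312 bp for red light replicates 2 and 3, and 549 bp for red light replicate 1. Red light replicate 1 stands apart: its peaks covered a median of 31 mock tags against 18 or 19 in the other libraries. Its median peak held 296.2 tags per 10 M against 172.5 and 177.5 in the other red libraries, from lists of unequal length. Over the sites called in all 6 libraries the medians were 318.7 against 220.1 and 219.6. The part of the wider window in this was not tested. Results that rest on it are given with and without it.

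HY5-YFP sites near GI, FKF1 and LKP2 were called in all 6 libraries. The main CDF1 site was called in all 3 blue libraries and in no red library. ZTL had a peak in blue light replicate 2 only, and CDF1 had a second site in blue light replicate 3 only. With a consensus site defined as one called in at least 2 of the 3 libraries of a light, 4 of the 5 genes had one in blue light and 3 of the 5 in red light. Among 27444 protein-coding genes, 43.6% had a consensus site in blue light and 26.7% in red light by the same rule.

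The sites lay mostly outside the genes, and their centres were placed nearly alike in every library. GI (AT1G22770, chromosome 1, 8061751 to 8067790) had its site at 8060553 to 8061101, in the interval between GI and PAB3 (AT1G22760). The 6 peak centres were 924 to 945 bp outward of the lower-coordinate end of GI and 1761.5 bp, at the median, from PAB3. The site was thus nearer to GI than to PAB3, and outside the assignment window of PAB3.

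The FKF1 site was close to the gene. FKF1 (AT1G68050, chromosome 1, 25508639 to 25510907) had it at 25508165 to 25508713, with centres 196 to 206 bp outward of the lower-coordinate end. FKF1 had the tightest placement of the 3 sites called in all 6 libraries, with a spread of 10 bp against 21 bp at GI and 34 bp at LKP2.

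The LKP2 and CDF1 sites lay close to neighbouring genes and can be assigned to more than 1 gene. LKP2 (AT2G18915, chromosome 2, 8194512 to 8197483) had its site at 8197273 to 8197821, with centres 57 to 91 bp outward of its higher-coordinate end. These centres also fell inside the long noncoding RNA gene AT2G18917 and 197 bp from AT2G18920, whose window held the site too. CDF1 (AT5G62430, chromosome 5, 25069093 to 25071111) had its main site at 25071259 to 25071638, with centres 318 to 353 bp outward of the higher-coordinate end and 664 bp from AT5G62440, whose window also held it.

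The peaks found in 1 library had different placements. The second CDF1 site, at 25067447 to 25067787, had its centre 1476 bp outward of the lower-coordinate end, at the edge of the window and also within the window of AT5G62420. The ZTL peak was the only one with its centre inside one of the 5 genes. ZTL (AT5G57360, chromosome 5, 23241320 to 23244590) had it at 23241206 to 23241554, with the centre 60 bp inside the lower-coordinate end.

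**Figure D1:**
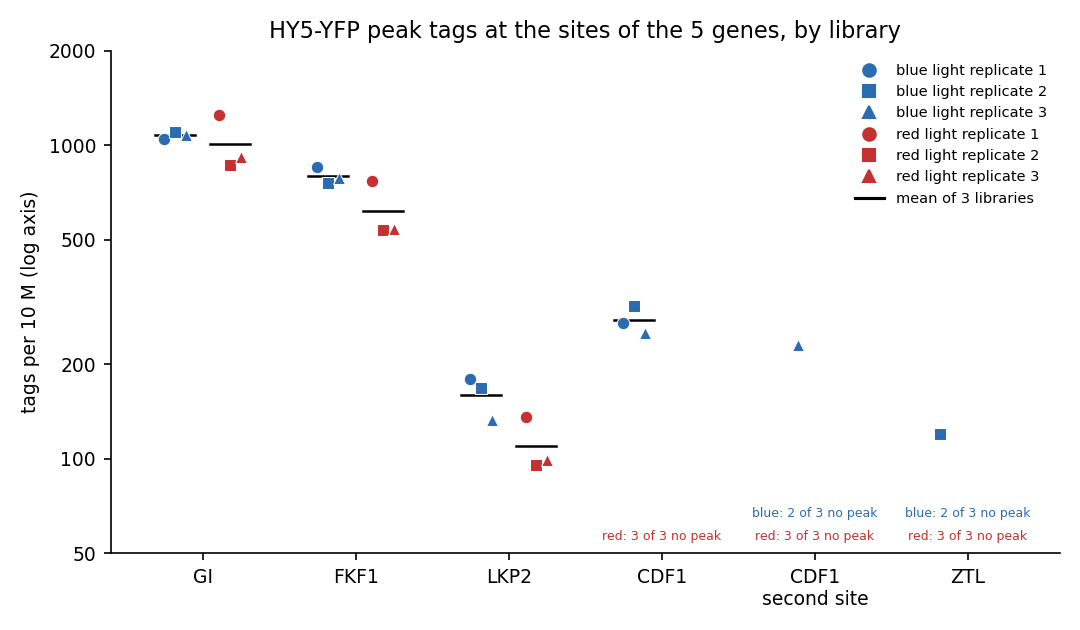
Authors' normalized tags per 10 M (log axis) at the 6 sites, 1 symbol per library and a bar for the mean of 3 libraries; libraries with no peak are counted at the foot. At GI, FKF1 and LKP2 red light replicate 1, counted in a wider window, is the only red library that reaches the level of a blue one.

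GI carried the strongest HY5-YFP site of the 5 genes in every library. Its normalized tag count was 1049.4, 1099.7 and 1081.1 tags per 10 M in blue light replicates 1 to 3, and 1251.4, 862.3 and 916.2 in red light replicates 1 to 3. The lights overlapped, since red light replicate 1 was above all blue libraries and the other red libraries below them. The blue mean was 1077 ± 25.4 and the red mean 1010 ± 211 (SD, n = 3), and GI ranked between 143 and 178 in the blue lists and between 82 and 100 in the red lists. Ranks come from lists of unequal length and cannot show whether GI changed between lights.

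FKF1 was second in every library. It had 850.8, 755.5 and 785.8 tags per 10 M in blue light and 768.1, 535.6 and 540.1 in red light. Red light replicate 1 again fell among the blue libraries, and the others were below them. The blue mean was 797.4 ± 48.7 and the red mean 614.6 ± 133 (SD, n = 3). FKF1 lay within the top 3.71% to 7.72% of each list and GI within the top 1.51% to 2.48%.

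LKP2, the F-box gene closest to ZTL, carried a weak site. It had 179.8, 168.1 and 132.6 tags per 10 M in blue light and 135.4, 95.3 and 99.3 in red light. The overlap between lights came from blue light replicate 3 and red light replicate 1, which were nearly level. The blue mean was 160.2 ± 24.6 and the red mean 110 ± 22.1 (SD, n = 3). In red light the LKP2 peak ranked near the end of the lists, at 3915 of 4027, 5168 of 5672 and 4904 of 5441 peaks, and in blue light it stood at 62.4% to 81.1% of their length.

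The main CDF1 site was of intermediate strength in blue light. It had 270.5, 307.6 and 252.7 tags per 10 M, with a mean of 276.9 ± 28 (SD, n = 3), above LKP2 and below FKF1 in each blue library. Red lists give no value there, and a missing peak does not mean 0 tags: with the 24 or 25 mock tags under the blue peaks, the required 4-fold excess over the mock is reached only at 140.4 to 146.2 tags per 10 M. A 4-fold excess over the surroundings was required too. By that measure the blue peaks had folds of 5.4, 6.5 and 5.19, nearer to 4 than their 7.4, 8.41 and 7.2 over the mock. The tags needed for that second requirement were not computed. The range of 140.4 to 146.2 also holds for the windows of the blue libraries only. Red libraries had windows of other widths, so the level needed in them is not known. Among sites called in all 3 blue libraries, 20.5% were called in no red library.

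The remaining peaks were near the limit of what was called. The second CDF1 site held 230.2 tags per 10 M in blue light replicate 3 (95% exact binomial interval 198.2 to 266.0, counting error only), which overlaps the interval of the main CDF1 site in that library. The ZTL peak held 119.7 tags per 10 M in blue light replicate 2 (95% exact binomial interval 99.3 to 143.0, counting error only). Its 20 mock tags set the 4-fold requirement at 117.0 tags per 10 M, so ZTL passed it by a margin smaller than its counting error. The order in blue light was therefore GI, FKF1, CDF1, LKP2, with no overlap between neighbours, while ZTL in its 1 library cannot be ranked against the libraries without a peak.

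Light differences were tested with limma on log2(tags + 1), with tags per 10 M, for each of 3557 sites with a peak in every library, and p-values were adjusted over all of them by Benjamini-Hochberg. LKP2 was higher in blue than in red light by 0.54 on the log2 scale (SE 0.23, limma adjusted p = 0.0425). FKF1 had a log2 difference of 0.39 (SE 0.21, limma adjusted p = 0.0934) and GI one of 0.11 (SE 0.22, limma adjusted p = 0.624); neither passed the threshold of 0.05. Of all sites, 51.9% were higher in blue light by this test, and the median log2 difference over all sites was 0.48, close to that at LKP2 and FKF1 and above that at GI. Tags did not overlap, with all blue above all red libraries, at 59.4% of the sites and at none of these 3.

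Leaving out 1 library could change the call at LKP2 and the missing calls at GI and FKF1. Without red light replicate 1, GI differed by 0.28 (limma adjusted p = 4.16e-06), FKF1 by 0.57 (limma adjusted p = 6.88e-14) and LKP2 by 0.70 (limma adjusted p = 3.05e-07), all higher in blue light. In that fit 98.1% of 4633 sites were higher in blue light, so the 3 genes moved with nearly all sites. Leaving out any other library instead, the LKP2 call was lost, with limma adjusted p-values of 0.126 to 0.219. Those fits gave 140 to 220 sites higher in blue light of 3560 to 3705 tested. With all libraries it was 1846 of 3557, so most calls were lost along with that at LKP2.

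**Figure D2:**
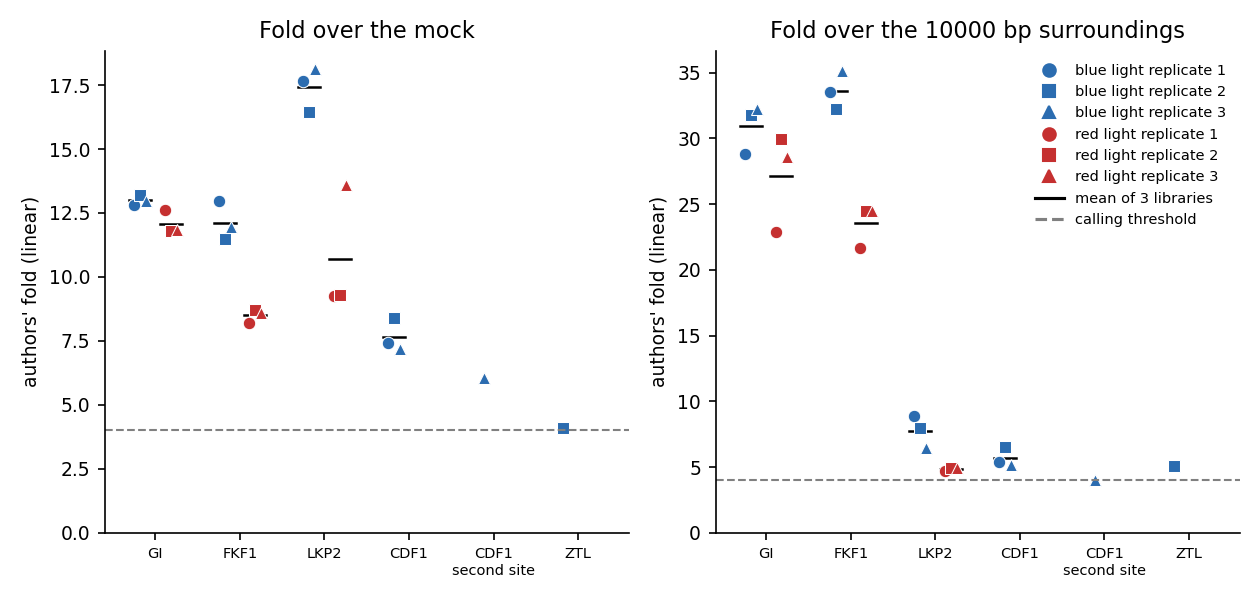
Authors' fold of peak tags over the mock (left) and over the surrounding 10000 bp (right) at the same 6 sites, 1 symbol per library; the dashed line marks the 4-fold requirement of the peak caller. FKF1 and LKP2 have all blue libraries above all red libraries in both panels. That order was found at 86.9% (mock) and 82% (surroundings) of the sites called in all 6 libraries. ZTL sits at the line over the mock.

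The deposited fold over the mock, which the authors computed per peak, put the genes in another order. LKP2, weakest by tags among the sites called in all 6 libraries, had the highest folds in blue light, at 17.65, 16.43 and 18.14, against 9.26, 9.31 and 13.58 in red light. Every blue library was above every red one, with means of 17.41 ± 0.881 and 10.72 ± 2.48 (SD, n = 3). LKP2 peaks covered only 5 to 10 mock tags, so these folds rest on small counts. Over all sites called in the 6 libraries, 86.9% had all blue folds above all red folds.

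FKF1 and GI had folds over the mock that were alike in blue light. FKF1 had 12.95, 11.48 and 11.94 in blue and 8.21, 8.72 and 8.59 in red light, and GI had 12.82, 13.2 and 12.97 in blue and 12.6, 11.8 and 11.82 in red light. At both genes all blue folds were above all red folds, as at 86.9% of the sites called in all 6 libraries. The gap was small at GI, where the means were 13 ± 0.191 and 12.07 ± 0.456 (SD, n = 3). It was wider at FKF1, where they were 12.12 ± 0.752 and 8.507 ± 0.265 (SD, n = 3). Mock tags were 50 to 68 at GI and 42 to 64 at FKF1, which is 2.19 to 3.0 times the median of the same list at GI and 2.07 to 2.39 times at FKF1. At LKP2 they were 0.263 to 0.389 times that median. Mock tags thus differed between the 3 regions in a sample without the antibody, and their part in the tag counts was not tested.

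CDF1 and ZTL had lower folds. The main CDF1 site had folds over the mock of 7.4, 8.41 and 7.2 in blue light, its second site 6.06 and ZTL 4.09. In limma on the log2 ratio of tags to mock tags, blue light was higher by 0.51 at FKF1 (adjusted p = 0.00117) and by 0.70 at LKP2 (adjusted p = 0.00122), and GI had a difference of 0.11 (adjusted p = 0.262). By that measure 89.8% of all sites were higher in blue light.

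The deposited fold over the surroundings separated the strong sites from the weak ones. It was 28.81, 31.76 and 32.21 in blue and 22.87, 29.93 and 28.61 in red light at GI, where the lights overlapped. At FKF1 it was 33.52, 32.25 and 35.12 in blue and 21.7, 24.47 and 24.49 in red light, with no overlap. At LKP2 it was 8.89, 7.96 and 6.45 in blue and 4.67, 4.91 and 4.89 in red light, also with no overlap, and the red values were close to the 4-fold requirement. The same order of all blue above all red libraries was found at 82% of the sites called in all 6 libraries. The main CDF1 site had 5.4, 6.5 and 5.19 in blue light, ZTL 5.1 and the second CDF1 site 4.02.

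**Figure D3:**
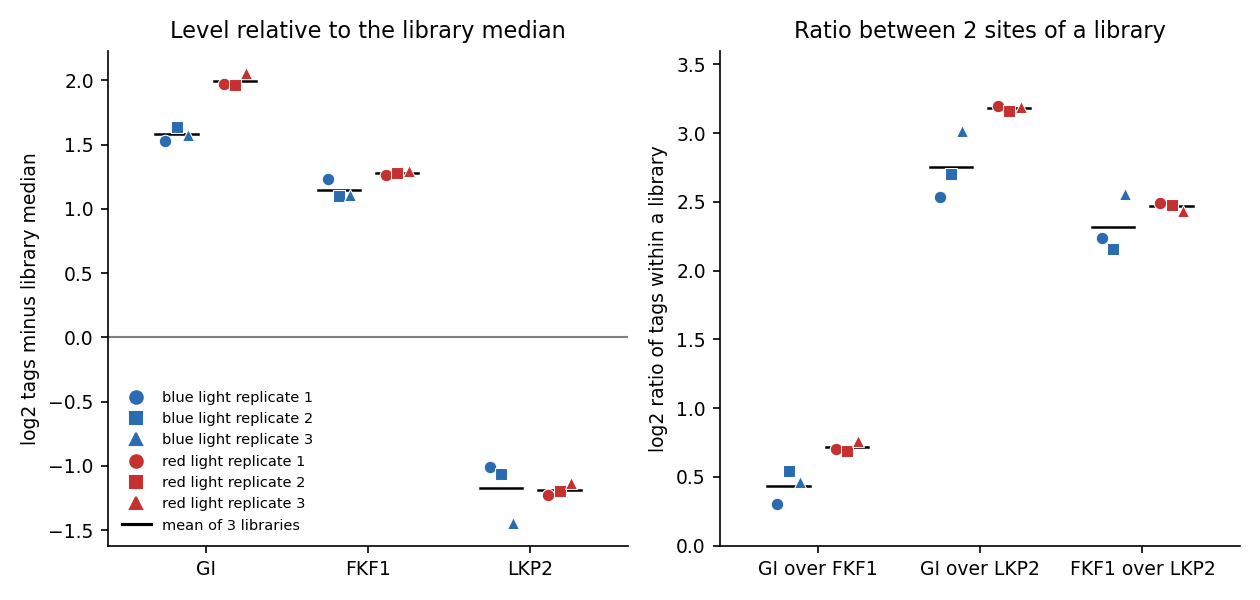
Log2 tags per 10 M at GI, FKF1 and LKP2 minus the median log2 tags of the 3557 sites in the same library, 1 symbol per library with a bar for the mean of 3. GI has all red libraries above all blue libraries, at 1.97 to 2.06 against 1.53 to 1.64, and the lights overlap at LKP2.

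Relative to the other sites of its library, GI stood higher in red than in blue light. Its log2 level above the library median was 1.53, 1.64 and 1.57 in blue light and 1.97, 1.97 and 2.06 in red light. Each red library, replicate 1 included, was above each blue one, and this order was found at 21.3% of the sites. In limma on values centred on the library medians, GI fell by 0.42 in blue against red light (SE 0.0592, adjusted p = 6.09e-07), and it passed in every fit that left out a library, with differences of -0.44 to -0.38. In that fit 11.8% of the sites were higher in red light and 7.96% higher in blue light. The direction at GI is therefore opposite to that of the uncentred tags, and it describes GI against the other sites and not the amount bound.

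FKF1 and LKP2 had smaller differences relative to the library median. FKF1 had log2 levels above the median of 1.23, 1.10 and 1.11 in blue and 1.27, 1.28 and 1.29 in red light, with no overlap; the limma difference of -0.13 (SE 0.0638, adjusted p = 0.143) did not pass. LKP2 had -1.01, -1.06 and -1.45 in blue and -1.23, -1.20 and -1.14 in red light, with a difference of 0.02 (SE 0.121, adjusted p = 0.942). GI had more tags than 95.02% to 97.67% of the sites, FKF1 more than 88.05% to 91.96% and LKP2 more than 1.29% to 6.89%.

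Ratios within a library do not depend on how libraries are scaled, though they can on the width of the window, and 3 pairs of genes were compared. GI held 1.233, 1.456 and 1.376 times the tags of FKF1 in blue light and 1.629, 1.61 and 1.696 times in red light. GI held 5.836, 6.542 and 8.153 times the tags of LKP2 in blue light and 9.242, 9.048 and 9.227 times in red light. In both pairs all blue ratios were below all red ratios; a two-sided exact permutation test returned p = 0.1 for each, the smallest that 3 against 3 libraries allow, and 0.15 after adjustment over the 3 pairs. Against the other 3556 sites, the ratio of GI had all blue below all red libraries in 80.5% of cases, so FKF1 and LKP2 were not unusual partners in this respect. FKF1 over LKP2 was 4.732, 4.494 and 5.926 in blue and 5.673, 5.62 and 5.439 in red light, which overlapped (exact permutation p = 0.4, adjusted 0.4).

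Sites with the most similar profile were sought by the root mean square difference of mean-centred log2 tags over the 6 libraries, as a description. The nearest sites to GI were at AT5G25010, PPX2 and SLK2, with differences of 0.0252 to 0.0335 against a median of 0.213 over all other sites. Those nearest to FKF1 were at MYB56, AT5G02090 and AT5G10190, at 0.0198 to 0.0252 against a median of 0.125. Those nearest to LKP2 were at AT2G46535, ERD4 and AT3G29075, at 0.0199 to 0.0459 against a median of 0.178.

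Another 28 genes of the pathway were examined in 6 groups by role, and most of them had a site. In blue light 20 of the 28 had a consensus site and in red light 16, against the 43.6% and 26.7% of protein-coding genes given above. These genes too were listed with earlier results of these data known. The counts here and in the groups below therefore describe them and do not test an excess. With the full lists, the consensus site of CO, FT, TSF and CUL1 was limited to blue light, and none of the 28 had one limited to red light. Of 27444 protein-coding genes, 11960 had a consensus site in blue and 7319 in red light. The share limited to blue light was not counted over all genes, so these 4 genes cannot be called unusual. With all lists shortened to equal length, the counts were 13 in blue and 15 in red light, against 21.1% of protein-coding genes in each light. CO, FT, TSF and CUL1 then had no consensus site in either light, and PRR5 and CDF2 had one in red light alone, so the contrast between lights in these genes held for the full lists only. No peak lay in the windows of CDF4, TEM2, FBH1, FBH2 and HSP90.1, and 14 of the 28 sites of this group of genes also lay in the window of another protein-coding gene.

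**Figure D4:**
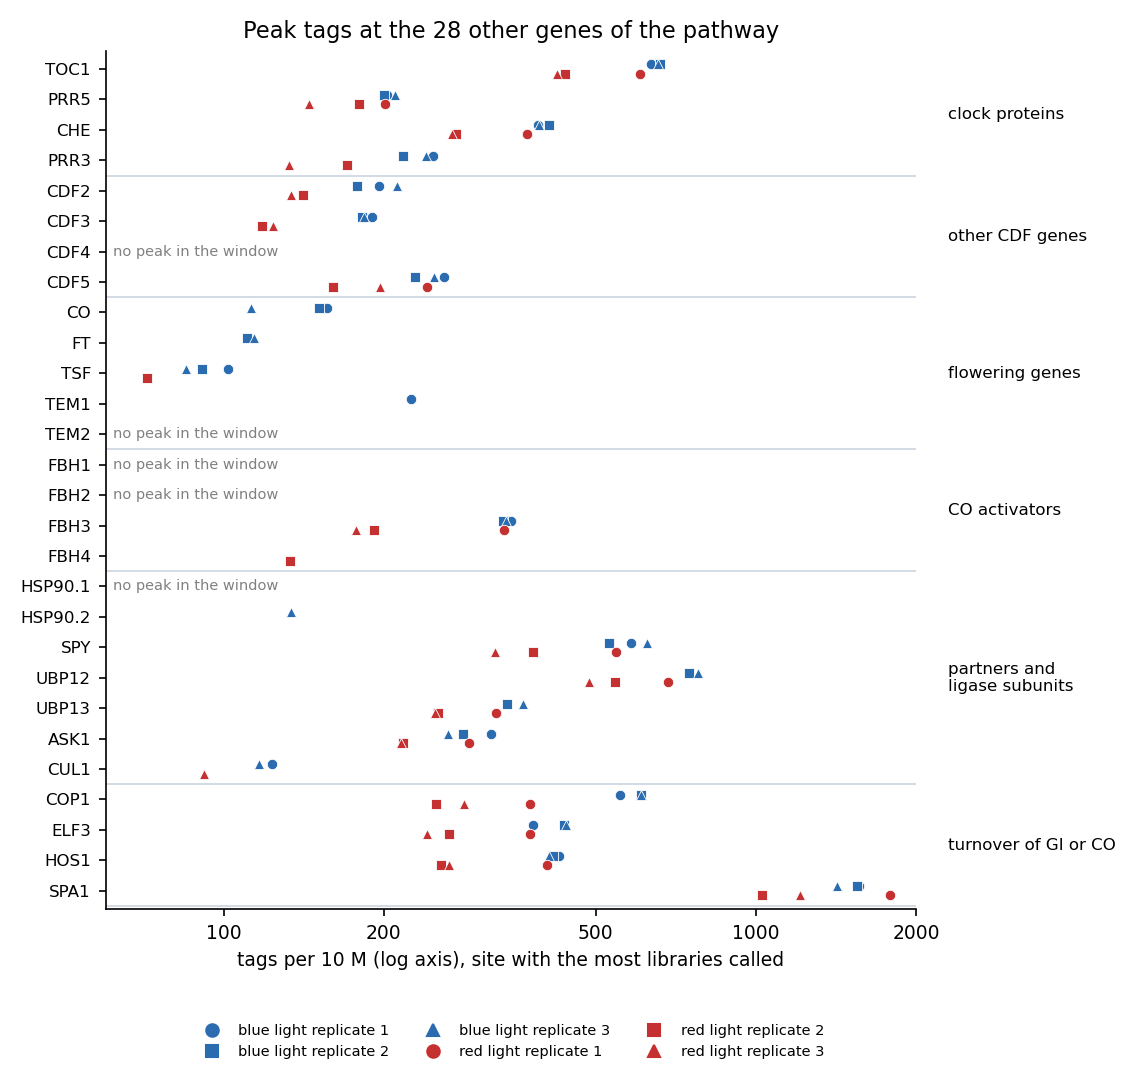
Tags per 10 M (log axis) at the site called in most libraries of each of the 28 pathway genes, grouped by role, 1 symbol per library. The flowering genes CO, FT and TSF have blue symbols between 85.1 and 156.6 and 1 red symbol in all, while TOC1, UBP12, COP1 and SPA1 are called in all 6 libraries.

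Genes of clock proteins that meet the F-box family had consensus sites in both lights, 4 of 4 in each. Among protein-coding genes it was 43.6% in blue and 26.7% in red light. With lists of equal length, PRR5 kept its consensus site in red light only. TOC1 and PRR5, clock proteins that ZTL marks for degradation, and CHE, a transcription factor of the clock, had a site in all 6 libraries, and PRR3, which shields TOC1 from ZTL, lacked one in red light replicate 1 only. TOC1 had 636.9, 661.6 and 654.4 tags per 10 M in blue and 605.5, 438.5 and 423.2 in red light. All blue libraries were above all red ones there, as at 59.4% of the sites called in all 6 libraries. The log2 difference of 0.43 at TOC1 did not pass (limma adjusted p = 0.0696). PRR5 had 3 sites, of which 1 was called in all 6 libraries and 1 in no red library.

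Relatives of CDF1 resembled it in part. CDF5 was called in all 6 libraries with 245.9 ± 15.2 tags per 10 M under blue and 199.6 ± 40.7 under red light (SD, n = 3). CDF2 and CDF3 were called in all libraries but red light replicate 1. CDF1 was the only gene of this family with a consensus site in blue light and no red peak.

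The targets of CDF1 had weak sites, called mostly in blue light. CO, which activates FT, had 156.6, 151.3 and 112.6 tags per 10 M in blue light and no red peak. FT, the mobile flowering signal, had 110.8 and 113.9 in blue light replicates 2 and 3 and no red peak. TSF, the close relative of FT, had 101.9, 91.0 and 85.1 in blue light and 71.9 in red light replicate 2. All of these were below the median peak of their lists, and 3 of the 5 flowering genes had a consensus site in blue light against 0 in red light, beside 43.6% and 26.7% of protein-coding genes. With lists of equal length, and at an 8-fold requirement over the mock, it was 0 of 5 in both lights. TEM1, a repressor of FT, had 225.1 in blue light replicate 1 only.

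Among activators of CO, FBH3 alone had a site in all 6 libraries, at 340.3 ± 6.68 tags per 10 M under blue and 235.2 ± 88.1 under red light (SD, n = 3). It was higher in blue light by 0.59 (limma adjusted p = 0.0203). FBH4 had a peak of 133.5 in red light replicate 2 only.

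Of the partners and ligase subunits of the family, 4 of 7 had a site in all 6 libraries, as did 19.6% of protein-coding genes. UBP12 and UBP13, deubiquitylating enzymes that GI brings to ZTL, had means of 759.3 and 348.8 tags per 10 M in blue and 571.3 and 276.1 in red light. SPY, an O-fucosyltransferase that binds GI, was higher in blue light by 0.51 (limma adjusted p = 0.0387), and ASK1, the SCF subunit that holds the F-box, had a difference of 0.27 (limma adjusted p = 0.234). CUL1, the scaffold of the ligase, had 123.3 and 116.4 in blue light replicates 1 and 3 and 91.7 in red light replicate 3. HSP90.2, a chaperone gene, had 133.9 in blue light replicate 3 only.

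Of the genes of GI and CO turnover, 4 of 4 had a site in all 6 libraries, beside the same 19.6% of protein-coding genes. COP1, a ubiquitin ligase that removes GI and CO, was higher in blue light by 0.98 (limma adjusted p = 0.000145), with 590.8 ± 31.2 tags per 10 M under blue and 303.3 ± 65.2 under red light (SD, n = 3). ELF3, which carries GI to COP1, was higher by 0.53 (limma adjusted p = 0.0308). SPA1, a partner of COP1, exceeded GI in tags, with means of 1513 in blue and 1341 in red light and a difference of 0.21 that did not pass (limma adjusted p = 0.366). HOS1, a ubiquitin ligase acting on CO, had a difference of 0.46 (limma adjusted p = 0.0519).

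Of the 13 pathway sites tested, 4 were higher in blue light and 0 higher in red light by limma on the tags, beside 51.9% of all sites higher in blue light, with a median log2 difference of 0.42 against 0.48 over all sites. On tags over mock tags 10 of the 13 were higher in blue light, beside 89.8% of all sites. Without red light replicate 1 all 13 were higher in blue light, as were 98.1% of all sites. On values centred on the library medians, the calls at FBH3, SPY and ELF3 ended, with log2 differences of 0.07, -0.02 and 0.01 (limma adjusted p = 0.687, 0.874 and 0.97). COP1 was higher in blue light by 0.45 (limma adjusted p = 1.59e-05), and PRR5, ASK1 and SPA1 fell by 0.29, 0.26 and 0.31 in blue against red light (limma adjusted p = 0.0484, 0.0424 and 0.000267). These 4 calls also held without red light replicate 1. On tags over mock tags with centring, only the COP1 call held (limma adjusted p = 0.0441), while at GI the difference of -0.48 also passed (limma adjusted p = 0.0185).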

How the data were processed

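Peak calling was done by the authors per library with findPeaks of HOMER and the mock as control, per the file headers, at 4-fold over the mock and over 10000 bp of surroundings, a Poisson p-value of 0.0001 and a false discovery rate of 0.001. HOMER was version 4.9 and the build TAIR10, per the submitters' processing notes; which aligner was used is not stated there. The deposited signal per peak gives tags per 10 M of the library, and mock tags are a signal that is not scaled. The deposited fold values are ratios over the mock and the surroundings. The deposited fraction of tags near the peak centre, the score and p-values of peaks were read only to check the files. Intervals cover counting error only, since PCR copies are not independent molecules.

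Peaks were joined with bedtools 2.31.1. Light was tested with limma 3.58.1 (R 4.3.3) with a trend on log2(tags + 1), 3 libraries against 3, and by exact permutation of library ratios. Planned tests on counts were not run: the deposited values are a scaled signal, although multiplied by depth 100% of them came within 0.1 of a whole number, and the binomial intervals use those tags. The joining of peaks and limma were checked on simulated data. The simulation for limma held no shift between whole libraries and no library with a wider window, so it does not cover those features of these data. The genes named are the 5 members, pathway genes with a site in all 6 libraries or a consensus site in 1 light, and the 3 sites nearest in profile; pathway genes with a peak in 1 library or with none, PRR3, CDF2 and CDF3 were added after their values were seen. Members and lists were chosen with earlier results of these data known. Alternatives were pseudocount, filter, centring, mock ratio, replicate block, join overlap, list length, peak fold, window and each library left out.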

Additional observations from a re-analysis of the deposited data

How the results depend on the processing

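The count of sites higher in blue light was 1846 and that higher in red light 1. With centring on library medians they were 283 and 421, with tags over mock tags 3193 and 6, and with the replicate block and centring 290 and 426. Peaks at least 8-fold over the mock gave 533 higher in blue of only 1183 sites tested, against 1846 of 3557, and a mean of at least 200 tags gave 2 higher in red. With the replicate block alone, 0 sites were higher in red by limma (2 at an unadjusted p under 0.05). Leaving out 1 library gave 140 to 4543 sites higher in blue and 0 to 6 higher in red (0 to 6 at an unadjusted p under 0.05); red light replicate 1 left out gave the 4543, and the other libraries 140 to 220.

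At GI and FKF1, centring turned the direction, to -0.42 and -0.13 with or without the replicate block. FKF1 passed on tags over mock tags (0.51). Leaving out 1 library gave 0.0077 to 0.28 at GI, 0.31 to 0.57 at FKF1 and 0.45 to 0.70 at LKP2. LKP2 was no longer called with centring (0.017, with the replicate block too) or with the replicate block alone (0.54, limma adjusted p = 0.0527, in a range of 3.05e-07 to 0.945 over its alternatives). Relative to the library median, LKP2 ranged from -0.063 to 0.15 when 1 library was left out, below 0 without blue light replicate 1 (-0.063) or 2 (-0.036). Same-numbered libraries of the lights had correlations of -0.037, -0.087 and 0.045 in their deviations from the light means, which gave no sign of pairing. A shift common to all sites of a library does not show in these correlations, so pairing of that kind is not known. Among the pathway sites the replicate block ended the call at SPY (limma adjusted p = 0.0618), and it changed no other call on the members or on these sites; with it, the smallest exact p for a ratio is 0.25. The ratios kept their direction under every alternative run. The cause of these changes was not tested. Where 1 library was left out, the fit also had fewer libraries, and the part of that was not separated.

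With lists of equal length, 13 pathway genes had a consensus site in blue light against 20, and among the members LKP2 was lost in both lights and CDF1 kept in blue light; at 8-fold over the mock CDF1 was lost. The count tests planned were not run, and LKP2 has no value where a mean of 200 tags was required. Counting error is larger than the margin by which ZTL was called, and a site without a peak has no value in the lists.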
